A study of Saccharomyces cerevisiae with 8 samples.

Results

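The genes described here encode the proteins of the large (60S) subunit of the cytosolic ribosome of budding yeast, Saccharomyces cerevisiae. Members were the open reading frames whose standard symbol is RPL plus a number, or RPP0, RPP1A, RPP1B, RPP2A or RPP2B. The rule found 81 genes of 6600 open reading frames in each file, 76 RPL genes and 5 RPP genes. They encode 46 proteins, of which 35 have a pair of gene copies, named A and B, and 11 come from a single gene. The genes lie on 14 chromosomes, and 53 of them have an intron within the coding sequence in the R64 annotation.

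Ribosomal protein genes are among the most strongly transcribed genes of a growing yeast cell. Rap1 binds upstream of most of them and, with Fhl1, Ifh1 and Sfp1, ties their transcription to growth and to TOR signalling. In the finished subunit Rpl3 and Rpl10 lie near the peptidyl transferase centre, Rpl5 and Rpl11 hold the 5S rRNA, and Rpl25 and Rpl39 line or border the exit of the peptide tunnel. Rpp0 carries the acidic P1 and P2 proteins in the stalk, which recruits elongation factors.

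The cells carried an anchor-away system, in which rapamycin joins an FRB-tagged nuclear protein to an anchor that carries FKBP12. Here Ceg1, the guanylyltransferase that adds the cap to new RNA polymerase II transcripts, had the FRB tag, and the anchor was Rpl13a, itself a 60S protein. The strain called ceg1-AA was MATalpha with tor1-1, fpr1::NAT, RPL13AxFKB12::TRP and CEG1-FRB::HIS, and ceg1-AA/xrn1D had in addition a KAN disruption of XRN1, which encodes the main cytoplasmic exonuclease that degrades RNA from its 5′ end. Every group therefore had the tor1-1 allele, the disrupted FPR1 and the tagged anchor gene, and no strain without the tags was among the samples. Cells grew in YPD at 30 °C and received DMSO or rapamycin at 1 µg/mL for 45 min. In ceg1-AA there were 2 libraries with DMSO and 2 with rapamycin. In ceg1-AA/xrn1D there was 1 with DMSO, as replicate 2 was not analysed here, and 2 with rapamycin. The genotype of the ceg1-AA/xrn1D replicate 2 samples is labelled KAN::XRN3. The labels do not say that replicates were separate cultures, so p-values measure the spread between these samples, which may be technical.

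The sequence context of the genes on which the results turn is given first. The stretches below, from the R64 genome and written on the strand of the gene, hold a match to a Rap1 motif upstream of the start codon, in capitals. The motif searched reads ACA, any base, CC, any base and TACA. RPL22A and RPL22B are shown because the copies moved in opposite directions, RPL13A as the anchor gene, RPL36A for its shift against RPL36B, and RPP1B, RPL37A and RPL17A because they are among the 5 lowest fold changes with rapamycin in ceg1-AA.
RPL22A, chrXII:262956-262985, plus strand: tttaataatACATCCATACAtttatgttaa
RPL22B, chrVI:65159-65188, minus strand: tccatgtcaACACCCGTACAtattcagaga
RPL13A, chrIV:308215-308244, plus strand: tttcctgttACATCCTTACAtatatgcagg
RPL36A, chrXIII:650972-651001, plus strand: gactgttttACACCCGTACAtttcacagtt
RPP1B, chrIV:229645-229674, plus strand: ttacacaaaACATCCGTACAtcagaaggat
RPL37A, chrXII:522294-522323, plus strand: attaactaaACATCCGTACAcaaaaggttt
RPL17A, chrXI:108912-108941, plus strand: cacattacaACATCCGTACAtttagttggc

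The motif began 229 bases before the start codon of RPL22A and 247 bases before that of RPL22B. RPL22B and RPL36A hold the same 11 letters of the motif, as do RPL25 and RPL41B. RPP1B, RPL37A and RPL17A share another version, which was also found upstream of RPL11B, RPL23B, RPL26A, RPL31B and RPL40A. Searched on both strands in the 600 bases before the start codon, the motif occurred at 18 of 81 members (22.2%), against 1.46% of 5895 genes. RPL12A and RPL34A, also among the lowest fold changes with rapamycin in ceg1-AA, had no match in these bases. It occurred at 15 of 56 genes of the small (40S) subunit and at 0 of 34 genes of the mitochondrial large subunit. In a window from 250 bases before to 50 after the start codon it occurred at 4 members (4.94%, against 0.594% of genes); the 600-base window was added after that search. An Abf1 motif, TCA and ACG with 6 bases of any kind between them, was in the 600 bases of 18.5% of members and 25.8% of genes. A run of 8 T was in 63.0% of members and 47.7% of genes, and 4 A followed by 4 T in 16.0% and 13.8%. A match is a description of letters, not a measured site.

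RPL41A and RPL41B could hardly be measured. They encode the smallest protein of the subunit, and their coding sequences of 78 bases differ at 1 base, in capitals here.
RPL41A, chrIV:130407-130484, minus strand: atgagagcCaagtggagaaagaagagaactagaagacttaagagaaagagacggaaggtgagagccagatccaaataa
RPL41B, chrIV:221724-221801, minus strand: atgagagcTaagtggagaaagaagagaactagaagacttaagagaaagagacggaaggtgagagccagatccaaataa
Each had 0 or 1 counts in every library and was left out by the filter on low counts, which 79 of the 81 members passed. Across the 35 pairs the coding identity of the copies ran from 69.2% (RPP1) to 99.4% (RPL1), with a median of 93.2%. In 6 pairs, RPL1, RPL4, RPL7, RPL11, RPL35 and RPL41, over 50% of the 50-base stretches occur in both copies, so the split of reads between those copies is uncertain. Their sum is uncertain too, since the treatment of reads that match both copies is not given in the sources used here.

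Library totals ran from 935651 to 3385761 counts. XRN1 had 0 counts in the 3 ceg1-AA/xrn1D libraries and 338 to 794 in the 4 ceg1-AA libraries, and FPR1 had 0 in all 7. Mitochondrially encoded transcripts took 1.41% and 1.13% of counts in ceg1-AA with DMSO and 3.37% and 2.47% with rapamycin, without overlap. In ceg1-AA/xrn1D they took 0.199% with DMSO and 0.281% and 0.250% with rapamycin. They therefore moved with the treatment in ceg1-AA and with the strain, and their part in the results was not tested.

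The 60S genes took a smaller share of the RNA with rapamycin and without XRN1. Their share of all counts was 9.43% and 9.29% in the ceg1-AA DMSO libraries and 7.11% and 7.54% with rapamycin. In ceg1-AA/xrn1D it was 6.08% with DMSO and 4.85% and 5.67% with rapamycin. Of the sum of deposited TPM, the group values were 19.2% and 16.3% in ceg1-AA and 12.1% and 10.9% in ceg1-AA/xrn1D, in the same order. The groups did not overlap, and the DMSO library of ceg1-AA/xrn1D was below both ceg1-AA rapamycin libraries. An exact permutation test of 2 libraries against 2 cannot reach 0.05, so no test is given. The ratio of 60S to 40S counts, which does not depend on scaling, was 1.28 to 1.33 in the 4 ceg1-AA libraries and 1.47 to 1.495 in the 3 ceg1-AA/xrn1D libraries. Shares and fold changes are relative to the RNA sequenced, so a fall of 60S RNA and a rise of other RNA cannot be told apart.

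**Figure D1:**
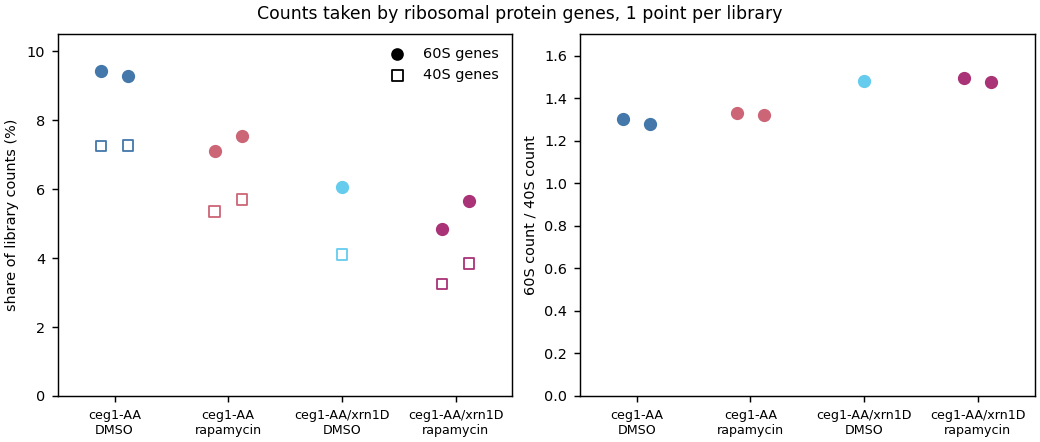
Share of library counts (%) in 60S genes (filled circles) and 40S genes (open squares), left, and the ratio of 60S to 40S counts, right, for the 4 groups on the x axis with 1 point per library. The 60S share is 9.43% and 9.29% in ceg1-AA DMSO and 4.85% and 5.67% in ceg1-AA/xrn1D rapamycin, while the ratio lies at 1.28 to 1.33 in ceg1-AA and 1.47 to 1.495 in ceg1-AA/xrn1D.

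Rapamycin against DMSO in ceg1-AA addresses which transcripts change when Ceg1 leaves the nucleus and XRN1 is present. Most 60S transcripts fell together, while RPL22B and RPP2B rose. By edgeR's quasi-likelihood test, with p-values adjusted over 5879 genes and a threshold of 0.05, 70 of 79 members fell, where 22.8% of all genes tested did, and 2 rose, where 24.3% did. The median log2 fold change of the members was -0.95, a 1.93-fold lower level, against 0.11 over all genes. Of the falls, 35 were at least 2-fold by the fit, and the sizes ran from 1.38-fold to 3.68-fold. Without ceg1-AA rapamycin replicate 1, 51 members were called lower, and without replicate 2, 55.

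These directions were also read in every pair of libraries. In each of the 4 pairs of a rapamycin and a DMSO library, 74 members were lower, which 32.6% of all genes were, and 30 members were at least 2-fold lower in every pair, which 7.38% of all genes were. RPL22B alone was at least 2-fold higher in every pair (4.88% of all genes). The scaling sets the zero point: with total counts alone the median of all genes was 0.62 and that of the members -0.43, and with scaling to mitochondrially encoded transcripts they were -0.57 and -1.61. Relative to the median of all genes, the members' median stayed between -1.16 and -0.98 over 14 settings, the main one included.

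**Figure D2:**
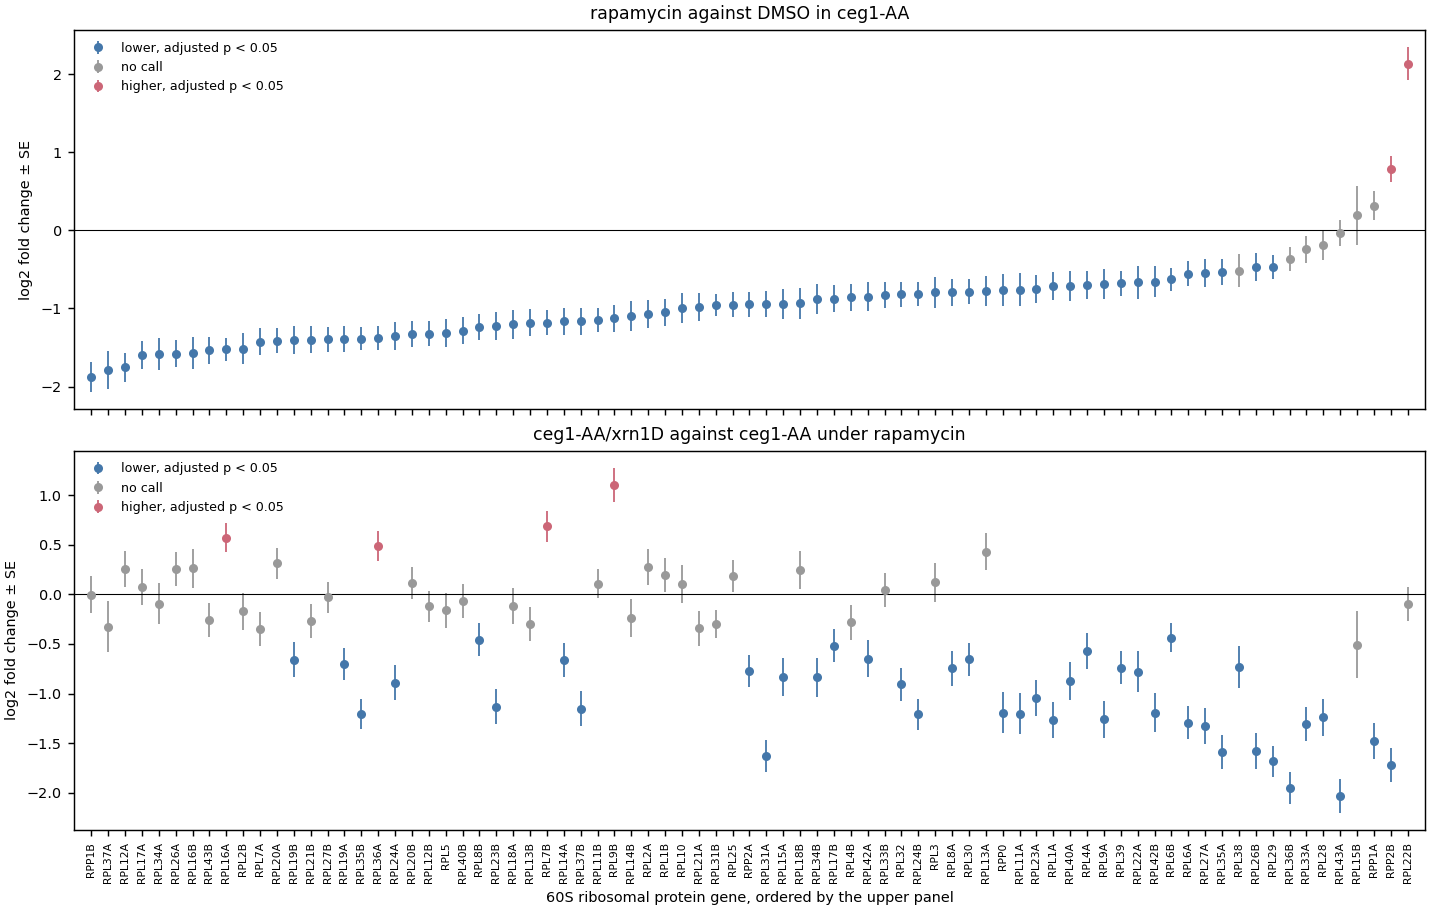
Log2 fold change ± SE (y axis, edgeR fit) of the 79 60S genes tested, ordered on the x axis by the upper panel, for rapamycin against DMSO in ceg1-AA (upper, 70 lower and 2 higher) and for the strains compared under rapamycin, as the level in ceg1-AA/xrn1D relative to ceg1-AA (lower, 41 lower and 4 higher). Blue points are lower and red points higher at an adjusted p under 0.05, and grey points have no call; with total counts alone RPL26B and RPL29 of the upper panel lie at 0.045 and 0.049.

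The largest falls were in RPP1B, RPL37A, RPL12A, RPL17A and RPL34A. RPP1B, which encodes a P1 protein of the stalk, had 310 and 243 CPM (counts brought to a common library total after TMM scaling) in the DMSO libraries and 76.2 and 74.5 with rapamycin. Its log2 fold change was -1.88 ± 0.19 (SE; edgeR adjusted p = 5.5e-05). RPL12A, whose protein sits at the base of the stalk, went from 1200 and 1034 CPM to 353 and 308 (-1.76 ± 0.19, edgeR adjusted p = 6.7e-05). In both genes every rapamycin library lay below every DMSO library. RPL37A, RPL17A and RPL34A were at -1.79, -1.60 and -1.58.

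The genes of the stalk did not move together. Of the 5 stalk genes, RPP0, RPP1B and RPP2A fell, RPP2B rose and RPP1A had no call. Of the 79 members 70 fell and 2 rose, and of all genes tested 22.8% fell and 24.3% rose. RPP2B, which encodes a P2 protein, had 1755 and 1469 CPM in DMSO and 2822 and 2736 with rapamycin. Its log2 fold change was 0.79 ± 0.17 (edgeR adjusted p = 0.0035), but with scaling to mitochondrially encoded transcripts it was 0.13, with an adjusted p of 0.83; over the 13 alternatives the adjusted p ran from 2.1e-05 to that value, and 12 of them called it. RPP2A, its partner copy, had 492 and 503 CPM in DMSO and 233 and 282 with rapamycin, at -0.95 ± 0.16. Of the P1 copies only RPP1B had a call, and it was the lowest of the members tested. RPP1A, at 979 and 1028 CPM in DMSO and 1042 and 1460 with rapamycin, was at 0.32 ± 0.18 (edgeR adjusted p = 0.17). RPP1A was called higher in 3 of 13 alternatives, total counts alone (0.83, adjusted p = 0.0019) and limma on both TPM scales (0.83, 0.0032 and 0.0035), and was at -0.32 with the mitochondrial scaling. RPP0, the single gene of the stalk base, was at -0.77 ± 0.20 (edgeR adjusted p = 0.010), a call lost without either ceg1-AA rapamycin library (-0.79 and -0.74) and with total counts alone (-0.25). Coding sequences of the RPP1 and RPP2 copies have no 50-base stretch in common.

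RPL22B rose more than any other member. Rpl22 is not essential in yeast, and its protein is known to bind the RPL22B transcript and reduce its splicing. RPL22B (YFL034C-A, chrVI:64243-64932, minus strand) has an intron of 321 bases. It had 51.6 and 41.6 CPM in the DMSO libraries and 237 and 176 with rapamycin, without overlap. The log2 fold change was 2.14 ± 0.21, 4.40-fold higher (edgeR adjusted p = 4.3e-05), and all 13 alternatives called it, with adjusted p from 4.3e-13 to 0.00076. RPL22A, the major copy (YLR061W, chrXII:263194-263948, plus strand), had 897 and 886 CPM in DMSO and 511 and 613 with rapamycin (-0.67 ± 0.21, edgeR adjusted p = 0.023). That call was lost without ceg1-AA rapamycin replicate 1 (-0.54, adjusted p = 0.16) or 2 (-0.80, 0.052) and with total counts alone (-0.15). The B copy therefore made up 5.44% and 4.48% of the counts of the pair in DMSO and 31.7% and 22.3% with rapamycin. The files do not say whether reads in the intron were counted, so spliced and unspliced RNA cannot be told apart.

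Of the 11 single-copy genes, 9 fell, with RPL38 and RPL28 the exceptions, where 61 of 68 duplicated members and 22.8% of all genes fell. RPL5, for the 5S rRNA-binding protein, had the largest fall of them at -1.31 ± 0.18 (edgeR adjusted p = 0.00023), and RPL10 was at -0.997, RPL25 at -0.95, RPL32 at -0.82, RPL3 at -0.80, RPL30 at -0.78 and RPL39 at -0.68. RPL28 (the gene CYH2, which can mutate to cycloheximide resistance) had 5280 and 5162 CPM in DMSO and 4316 and 4831 with rapamycin. Its value of -0.19 ± 0.18 made no call (edgeR adjusted p = 0.41). Its direction depended on the scaling: it was called lower with mitochondrial scaling (-0.85, adjusted p = 0.039) and higher by limma on both TPM scales (0.35, 0.034 and 0.035), and was 0.32 with total counts alone. RPL38 was at -0.52 ± 0.21 (edgeR adjusted p = 0.067), and 5 of 13 alternatives called it lower, among them DESeq2 (-0.59, adjusted p = 0.040) and the fit without ceg1-AA DMSO replicate 2 (-0.77, 0.0022). It was at 0.023 by limma on TPM. RPL29 was called at -0.47 ± 0.15 (edgeR adjusted p = 0.029), but was 0.049 with total counts alone. The calls of RPL3, RPL39, RPL30 and RPL32 were lost with total counts alone, at -0.28, -0.16, -0.27 and -0.31. The ubiquitin fusion genes RPL40A and RPL40B, whose product is cut into ubiquitin and a 60S protein, were at -0.71 and -1.28. The call of RPL40A was lost with total counts alone (-0.19, adjusted p = 0.33), by limma on TPM (-0.16, 0.39) and without either ceg1-AA rapamycin library (-0.73 and -0.69).

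The other genes with no call were RPL36B, RPL33A, RPL43A and RPL15B. RPL36B (-0.37) was called lower in 4 of 13 alternatives and RPL33A (-0.24) in 1, mitochondrial scaling. RPL43A had 1941 and 1948 CPM in DMSO and 1746 and 2059 with rapamycin, so the groups overlapped (-0.03 ± 0.16, edgeR adjusted p = 0.89). It was called higher in 3 of 13 alternatives, total counts alone (0.48, adjusted p = 0.013) and limma on both TPM scales (0.48, 0.0092 and 0.0095). RPL43B, with 1343 and 1081 CPM in DMSO and 453 and 382 with rapamycin, fell (-1.54 ± 0.17, edgeR adjusted p = 8.9e-05). RPL15B was among the least abundant members, at 15.2 to 31.8 CPM in these 4 libraries, and its SE of 0.38 was the largest of the genes named in this comparison.

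The anchor gene RPL13A had 183 and 143 CPM in the ceg1-AA DMSO libraries and 101 and 89.4 with rapamycin. Its fall of -0.78 ± 0.19 (edgeR adjusted p = 0.0078) was called in 9 of 13 alternatives; it was -0.26 with total counts alone and -0.70 (adjusted p = 0.058) without ceg1-AA rapamycin replicate 2. RPL13B, the copy without the tag, went from 1483 and 1427 CPM to 677 and 605 (-1.18 ± 0.17). RPL13A was the minor copy, with 9.10% to 13.0% of the counts of the pair in the 4 ceg1-AA libraries and 19.6% to 23.3% in the 3 ceg1-AA/xrn1D libraries.

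The fall ran through every class of member examined. Genes with an intron had a median of -1.07 (48 of 53 lower) and genes without one -0.82 (22 of 26 lower). Duplicated genes had a median of -1.01 (61 of 68 lower) and single-copy genes -0.78. Members with the Rap1 motif, 17 of them tested, had a median of -0.95, and the 62 without it -0.94. Of the 1061 genes in the top 20% by level that are not cytosolic ribosomal protein genes, 526 were lower (49.6%, against 22.8% of all genes), with a median of -0.41. The 11 members below the top 20% had a median of -0.78, with 9 lower. Over the 79 members, the fold change and log2 TPM in ceg1-AA/xrn1D rapamycin had a Pearson r of 0.04 and a Spearman rho of 0.11. The part of abundance in the fall was not tested. The 40S genes had a median of -1.001, with 46 of 56 lower and 0 higher (48 at an unadjusted p under 0.05), and the mitochondrial large-subunit genes 0.09, with 2 of 34 lower and 3 higher.

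Regulators and dedicated chaperones were read from lists of other genes in the pathway. Of 11 regulators, CRF1, SCH9, SFP1 and FHL1 rose (4 of 11, where 24.3% of all genes rose) and RAP1 fell (1 of 11, where 22.8% fell). With so few genes these counts are not set apart from the share over all genes. CRF1, a corepressor of ribosomal protein genes in some strains, had 15.6 and 12.2 CPM in DMSO and 21.0 and 35.8 with rapamycin (1.01 ± 0.34, edgeR adjusted p = 0.031). SCH9, the kinase below TORC1, was at 0.70, SFP1 at 0.55, FHL1 at 0.51 and RAP1 at -0.45. Of 7 chaperones that escort single 60S proteins or join the subunit early, 4 fell (22.8% of all genes): LOC1 (-1.03), RRB1, the Rpl3 chaperone (-0.92), BCP1, the Rpl23 chaperone (-0.65) and PUF6 (-0.53).

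The strains were next compared under rapamycin, which addresses what the loss of XRN1 changes in cells depleted of Ceg1. Values are ceg1-AA/xrn1D relative to ceg1-AA. The 60S genes were split: many were lower without XRN1, many had no call, and a few were higher. Of 79 members, 41 were lower (22.5% of all genes tested) and 4 were higher (21.2%). The median log2 fold change was -0.51, against 0.02 over all genes. Leaving out replicate 2 of the rapamycin-treated ceg1-AA/xrn1D libraries gave -0.68, and leaving out their replicate 1 gave -0.35. In every pair of libraries 47 members were lower (36.8% of all genes) and 8 higher (38.5%). Of the former, 16 were at least 2-fold lower (5.51% of all genes), and of the latter 1 was at least 2-fold higher (5.19%).

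The lowest were RPL43A, RPL36B, RPP2B, RPL29 and RPL31A. RPL43A had 1746 and 2059 CPM in ceg1-AA and 436 and 496 in ceg1-AA/xrn1D, a log2 fold change of -2.03 ± 0.17 (edgeR adjusted p = 1.9e-05). RPL36B had 675 and 762 against 174 and 198 (-1.95 ± 0.16, edgeR adjusted p = 1.7e-05), and RPP2B had 2822 and 2736 against 796 and 887 (-1.72 ± 0.17, edgeR adjusted p = 4.6e-05). No library of either strain overlapped with the other strain in these 3 genes. RPL29 was at -1.68 and RPL31A at -1.63. Of the stalk genes 4 of 5 were lower, where 41 of 79 members and 22.5% of all genes tested were. These were RPP1A at -1.48, RPP0 at -1.19, RPP2A at -0.77 and RPP2B. RPP1B, at 65.4 and 85.1 CPM against 76.2 and 74.5, was at 0.00 ± 0.19.

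The 4 higher members were RPL9B, RPL7B, RPL16A and RPL36A. RPL9B had 151 and 154 CPM in ceg1-AA and 344 and 312 in ceg1-AA/xrn1D, 2.15-fold higher (1.10 ± 0.17, edgeR adjusted p = 0.00057). Its major copy RPL9A was lower, from 1917 and 2044 to 697 and 957 CPM (-1.26 ± 0.19, edgeR adjusted p = 0.00045). RPL7B was at 0.69, RPL16A at 0.57 and RPL36A at 0.49. Without ceg1-AA rapamycin replicate 1, RPL9B was the 1 member still called higher. RPL13A was at 0.43 ± 0.19 and made no call (edgeR adjusted p = 0.083). In 4 of 12 alternatives it was called higher: total counts alone (0.52, adjusted p = 0.034), limma on both TPM scales (0.58, 0.038 and 0.039) and without replicate 1 of the rapamycin-treated ceg1-AA/xrn1D libraries (0.61, 0.048). RPL22B, at 237 and 176 CPM in ceg1-AA and 178 and 209 in ceg1-AA/xrn1D, overlapped between the strains (-0.10 ± 0.17, edgeR adjusted p = 0.68).

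Among single-copy genes, 7 of 11 were lower, where 34 of 68 duplicated genes and 22.5% of all genes tested were. RPL28 was at -1.24 ± 0.18 (edgeR adjusted p = 0.00044), while RPL3 (0.12), RPL10 (0.10), RPL25 (0.19) and RPL5 (-0.16) had no call. The sign of RPL3, RPL10 and RPL5 changed when 1 library was left out. RPL10 had 3420 and 3806 CPM in ceg1-AA and 3423 and 4333 in ceg1-AA/xrn1D. The 40S genes had a median of -0.59 with 29 of 56 lower and 6 higher, where 22.5% of all genes were lower and 21.2% higher. Mitochondrial large-subunit genes had a median of 0.53, with 19 of 34 higher and 2 lower, against the same shares. Of the chaperones 6 of 7 were lower (22.5% of all genes), ACL4, the Rpl4 chaperone, most at -2.003. Of the regulators FHL1 (-0.92), TOD6 (-0.89), SCH9 (-0.68), RAP1 (-0.68) and IFH1 (-0.47) were lower (5 of 11, against 22.5% of all genes). DOT6 (0.65) was higher (1 of 11, against 21.2%). Both lists hold few genes, and neither was tested as a set.

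The comparisons with the single DMSO library of ceg1-AA/xrn1D have no test. In DMSO, the 60S genes were already low without XRN1: the median log2 ratio of ceg1-AA/xrn1D to ceg1-AA was -1.17 (0.06 over all genes). In both pairs 76 of 79 members were lower (39.5% of all genes), 44 at least 2-fold lower (7.14%) and 1, RPL22B, at least 2-fold higher (7.55%). RPL22B had 238 CPM in the DMSO library of ceg1-AA/xrn1D against 51.6 and 41.6 in ceg1-AA, a mean log2 ratio of 2.34. The other member higher in both pairs was RPL9B, at 494 CPM against 382 and 283 (0.59). The lowest were RPL36B (-2.20), RPL35B (-2.06) and RPL31A (-1.98), and RPL13A, at 176 CPM against 183 and 143, was at 0.12. With total counts alone the median was -0.63, where that of all genes was 0.58.

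Rapamycin against DMSO in ceg1-AA/xrn1D gave smaller ratios. The median was -0.30 (0.00 over all genes), at -0.46 in the pair with rapamycin replicate 1 and -0.15 in the pair with replicate 2. In both pairs 64 members were lower (39.2% of all genes) and 0 were higher (39.3%), and 0 were 2-fold lower (0.187%) or higher (0.323%) in both. The extremes of the mean ratio were RPL37A (-0.92), RPL27B (-0.75) and RPL43B (-0.74) at the low end and RPL33A and RPL10 (-0.01 and -0.02) at the high end. RPL22B went from 238 to 178 and 209 CPM (-0.30), RPP2B from 973 to 796 and 887 (-0.21) and RPP1A from 537 to 448 and 449 (-0.26). The 40S genes had a median of -0.31, with 41 of 56 lower in both pairs. Whether the strains differ in their response was not tested, since ceg1-AA/xrn1D has 1 DMSO library. Over the 79 members, the mean ratios of the response in the 2 strains, which share no library, had a Pearson r of 0.32 and a Spearman rho of 0.32, given as a description; within a strain the members share their libraries.

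**Figure D3:**
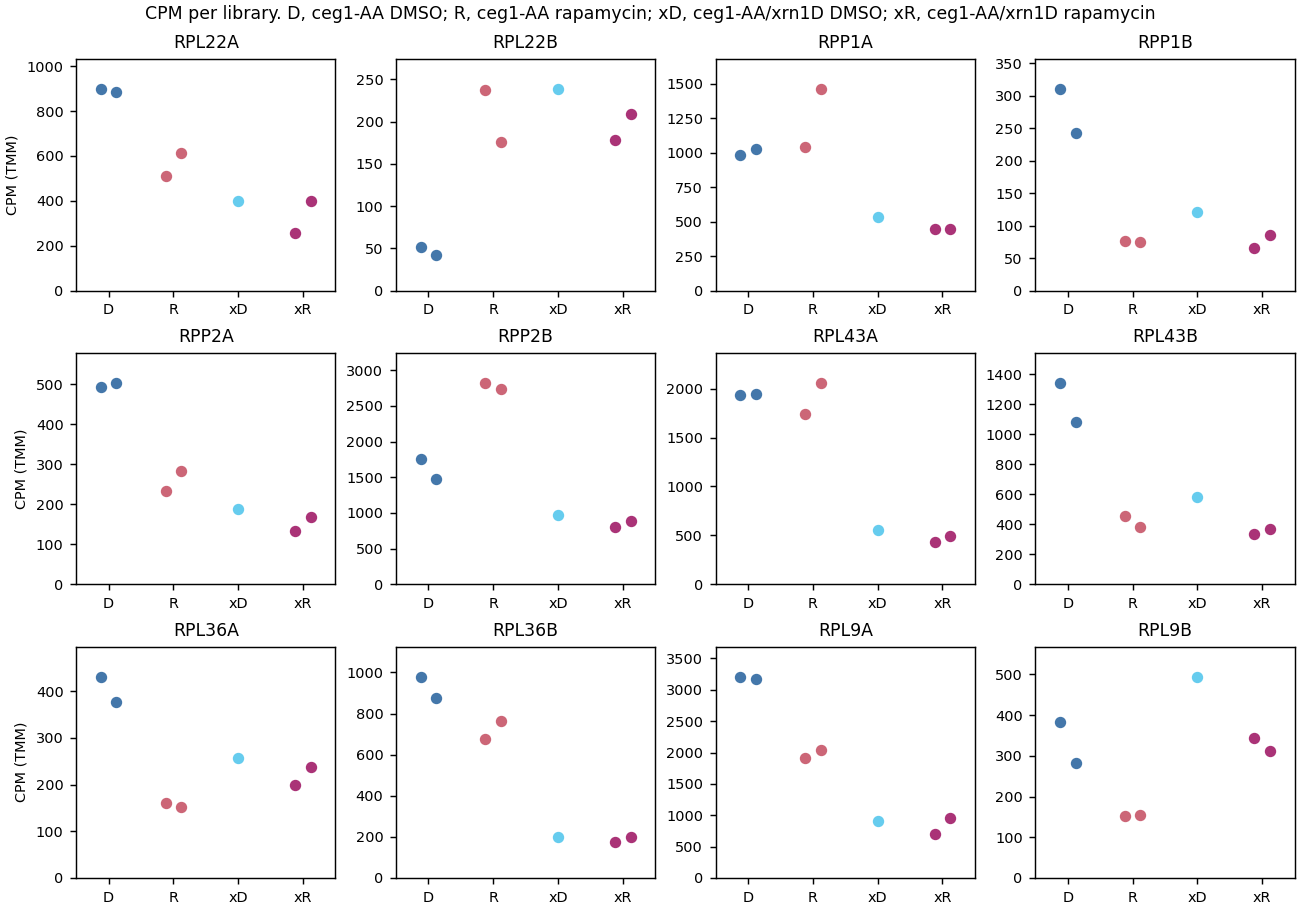
CPM per library (y axes from 0, TMM-scaled) of 12 60S genes in the 4 groups on the x axis, 1 point per library. RPL22B lies at 51.6 and 41.6 CPM in ceg1-AA DMSO and between 176 and 238 CPM in the other libraries; RPL43A and RPL36B lie lower in the 3 ceg1-AA/xrn1D libraries than in the 4 of ceg1-AA.

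The balance between copies of the same protein was compared as the share of the pair's counts in copy A, which does not depend on library scaling. Of 35 pairs, 30 had at least 50 counts for both copies in every library. The filter left out RPL22, whose log2 ratio shifted most of all with rapamycin in ceg1-AA, by -2.80, and by -3.50 between the strains under DMSO; RPL22B had 41 counts in its lowest library. It also left out RPL15 (-1.05 with rapamycin in ceg1-AA), RPL34, RPL37 and RPL41. With rapamycin in ceg1-AA the median absolute shift of the log2 ratio of copy A to copy B was 0.43, and 5 of the 30 pairs shifted by at least 1: RPP1, RPP2, RPL43, RPL26 and RPL36. Between the strains under rapamycin it was 0.66, and 11 pairs shifted by at least 1. Among these were RPL1 (-1.46), RPL11 (-1.31) and RPL7 (-1.02), whose split of reads between copies is uncertain. The median absolute shift was 0.57 between the strains under DMSO, with 5 pairs, RPL7 among them. With rapamycin in ceg1-AA/xrn1D it was 0.17, with 0 pairs. Duplicated genes outside the 60S set were not compared, so these counts have no background share.

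RPL36 had the largest shift between the strains under rapamycin, 2.43. RPL36A made up 30.6% and 30.0% of the counts of the pair in ceg1-AA DMSO, 19.2% and 16.5% with rapamycin, 56.3% in ceg1-AA/xrn1D DMSO and 53.5% and 54.5% with rapamycin. The A copy was therefore the minor one in the 4 ceg1-AA libraries and the major one in the 3 others. RPL9A had 89.4% and 91.8% in ceg1-AA DMSO, 92.7% and 93.0% with rapamycin, 64.7% in ceg1-AA/xrn1D DMSO and 67.0% and 75.4% with rapamycin, a shift of -2.37 between the strains under rapamycin. For RPL43A it was 59.1% and 64.3%, then 79.4% and 84.4% with rapamycin, and 48.8% to 57.5% in ceg1-AA/xrn1D. RPL26 shifted by 1.84 between the strains under rapamycin and RPL1 by -1.46, the latter with 81.0% of its 50-base stretches in both copies. For RPP2A it was 21.9% and 25.5% in ceg1-AA DMSO and 7.64% and 9.35% with rapamycin.

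**Figure D4:**
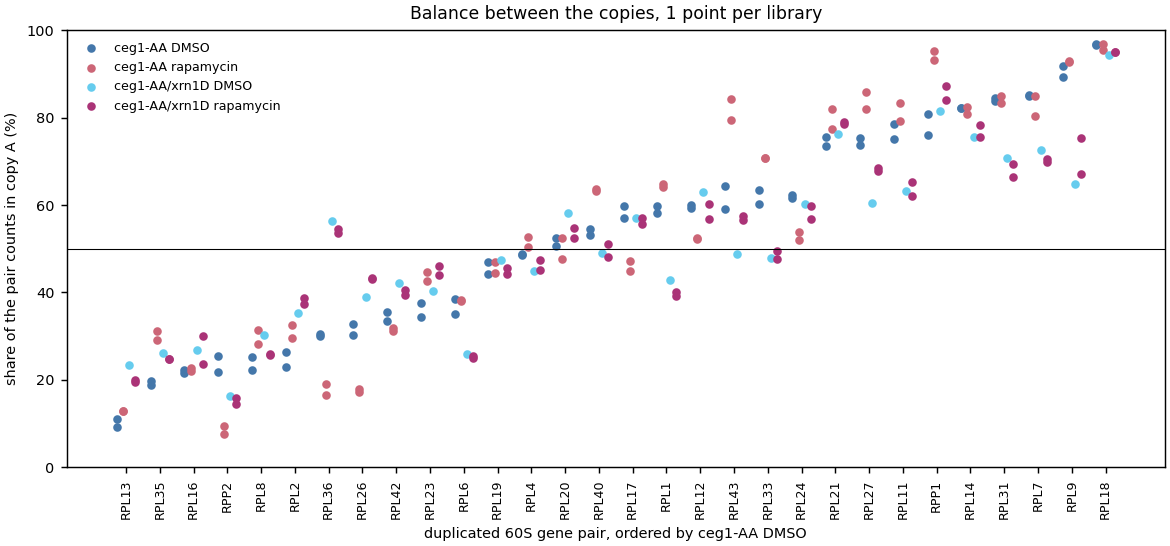
Share of the counts of a pair in copy A (%, y axis) for the 30 duplicated 60S pairs with at least 50 counts for both copies in every library, ordered by ceg1-AA DMSO on the x axis, 1 point per library and 1 colour per group. RPL36 lies at 16.5% to 30.6% in ceg1-AA and at 53.5% to 56.3% in ceg1-AA/xrn1D, and RPL9 at 89.4% to 93.0% and 64.7% to 75.4%.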

How the data were processed

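Total RNA of 7 libraries was analysed. The authors' deposited counts are whole numbers per open reading frame, and the deposited TPM values equal the count over length and a bias factor, rescaled, within 0.00028% for values above 1 TPM. Per the submitters' processing notes, tools included FastQC 0.11.5, HISAT2 2.1.1, SAMtools 1.15.1 and DESeq2, with build R64 (sacCer3). The counting program, strand use and filters are not given in the sources used here. The quasi-likelihood test of edgeR 4.0.16 (R 4.3.3) was run on the counts (filterByExpr, TMM, 1 coefficient per group, Benjamini-Hochberg over 5879 genes). Log2 CPM values, prior count 2, were compared in pairs of libraries. DESeq2 1.42.0, limma 3.58.1 on log2 TPM, other scalings, no filter, a replicate block and left-out libraries were alternatives. Fits were tested on simulated data. Members and lists were chosen with earlier results of these data known. Named were the anchor, stalk, single-copy, ubiquitin-fusion, RPL22 and RPL41 genes, the extremes of each comparison and the largest copy shifts. Motifs were searched in R64. Totals of 935651 to 3385761 counts set the precision, and duplicate reads were not separable from molecules.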

Additional observations from a re-analysis of the deposited data

Results flagged for a closer look

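Of the 79 members tested, 3 moved in opposite directions in the 2 strains in every pair of a rapamycin and a DMSO library, against 19.0% of all genes; the difference between the strains was not tested. RPL22B had a mean log2 ratio of 2.12 in ceg1-AA (1.75 to 2.49 over the pairs) and -0.30 in ceg1-AA/xrn1D (-0.42 to -0.19). RPP2B had 0.79 in ceg1-AA (0.64 to 0.94) and -0.21 in ceg1-AA/xrn1D (-0.29 to -0.13). RPP1A had 0.30 in ceg1-AA (0.02 to 0.58) and -0.26 in both pairs of ceg1-AA/xrn1D. Both ceg1-AA/xrn1D pairs of each gene use the same DMSO library.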

How the results depend on the processing

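Of 135 alternative values of the counts, medians, library shares and copy-ratio shifts of the 60S genes, 107 stayed within 1.5 times the count or the spread, and the median stayed negative in all 4 comparisons. For rapamycin against DMSO in ceg1-AA, total counts alone gave 42 lower, 4 higher and a median of -0.435; limma on log2(TPM + 1) and log2(TPM + 0.1) gave 41 lower, 5 higher and -0.398; TMM without ribosomal protein genes gave a median of -1.06; mitochondrial scaling gave 1 higher and -1.61. For the strains under rapamycin, limma on either TPM scale gave 7 higher and a median of -0.300. In DMSO between the strains, 2-fold lower members numbered 15 with total counts alone (median -0.631) and 17 on log2(TPM + 1) (-0.630). The share of the library in 60S genes was 19.2% and 16.3% of the TPM sum in ceg1-AA with DMSO and rapamycin and 12.1% and 10.9% in ceg1-AA/xrn1D, and 9.48% of the ceg1-AA DMSO counts without mitochondrially encoded frames. The cause was not tested.

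With rapamycin in ceg1-AA, 70 members were called lower in the main fit, 42 with total counts alone and 41 by limma on TPM. Single calls were followed for named genes only, so the lists here are not complete. Named genes that lost this call both ways were RPL13A, RPL18B, RPL1A, RPL22A, RPL3, RPL30, RPL32, RPL33B, RPL39, RPL40A, RPL9A and RPP0. Those that reversed sign are given further below. Calls lower were gained for RPL36B and RPL38 with DESeq2, its size factors and TMM without ribosomal protein genes, and for these, RPL28 and RPL33A with mitochondrial scaling. Between the strains under rapamycin, limma on either TPM scale made no call for RPL38.

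Leaving out each library in turn gave, for rapamycin in ceg1-AA, 51 to 68 lower, 2 higher and a median of -1.06 to -0.89; for the strains under rapamycin, 30 to 42 lower, 1 to 6 higher and -0.68 to -0.35; for the strains in DMSO, 45 to 53 members 2-fold lower, 1 higher and -1.24 to -1.06; for rapamycin in ceg1-AA/xrn1D, 0 to 1 lower, 0 higher and -0.46 to -0.15. Among named genes, calls with rapamycin in ceg1-AA were lost for RPL10, RPL30, RPL1A, RPL22A, RPL26B, RPL29, RPL3, RPL40A, RPL9A and RPP0 without ceg1-AA rapamycin replicate 1; for RPL13A, RPL39 and the same genes except RPL10 and RPL30 without replicate 2; for RPL26B and RPL3 without DMSO replicate 1; and for RPL29 without DMSO replicate 2. Between the strains they were lost for RPL7B, RPL16A, RPL36A, RPL38 and RPL39 without ceg1-AA rapamycin replicate 1, RPL22A, RPL30 and RPL36A without replicate 2, RPL22A and RPL38 without ceg1-AA/xrn1D rapamycin replicate 1, and RPL36A without replicate 2. A lone library is then assumed to vary like the other groups.

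The labels do not say whether samples with the same replicate number shared a batch. Deviations correlated at 0.131 (ceg1-AA groups), -0.027 (rapamycin groups) and -0.149 (ceg1-AA DMSO and ceg1-AA/xrn1D rapamycin). With 2 libraries in each of these groups, such values cannot decide it. With the replicate block, 69 fell and 2 rose (median -0.949) with rapamycin in ceg1-AA, and 41 and 4 (-0.489) between the strains; RPL26B lost its call in the former.

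Among the named genes, the sign reversed as follows. For rapamycin in ceg1-AA with total counts alone: RPL26B 0.045, RPL28 0.32, RPL29 0.049, RPL33A 0.27, RPL36B 0.14 and RPL43A 0.48. By limma on either TPM scale: RPL26B 0.083, RPL28 0.35, RPL29 0.048, RPL33A 0.29, RPL36B 0.15, RPL38 0.023 and RPL43A 0.48. With mitochondrial scaling: RPL15B -0.43 and RPP1A -0.32. Between the strains under rapamycin, total counts alone gave RPL27B 0.060, RPL40B 0.018 and RPP1B 0.085, no filter gave RPP1B 0.00949, and limma on either TPM scale gave RPL22B 0.015, RPL27B 0.067, RPL40B 0.015, RPL5 0.038 and RPP1B 0.11. Without a library, rapamycin in ceg1-AA gave RPL15B -0.43 to 0.64 and RPL43A -0.16 to 0.083. Between the strains it gave RPL10 -0.079 to 0.26, RPL15B -0.95 to 0.11, RPL17A -0.072 to 0.20, RPL1B -0.025 to 0.38, RPL22B -0.29 to 0.13, RPL27B -0.11 to 0.044, RPL3 -0.082 to 0.30, RPL33B -0.11 to 0.19, RPL34A -0.33 to 0.11, RPL40B -0.27 to 0.11, RPL5 -0.36 to 0.011 and RPP1B -0.21 to 0.17. Of these, RPL26B and RPL29 were called in the comparison they belong to. Low-count members such as RPL15B are limited by depth.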

Other observations

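Levels per length were compared as deposited TPM summed over the copies of each of 45 proteins, RPL41 left out. The coefficient of variation over proteins was 54.2% and 58.7% in the ceg1-AA DMSO libraries, 69.9% and 72.5% in ceg1-AA rapamycin, 58.2% in ceg1-AA/xrn1D DMSO and 61.9% and 61.8% in ceg1-AA/xrn1D rapamycin. RPL4 was the lowest protein in the 4 ceg1-AA libraries, at 446 to 583 TPM, and RPL35 in the 3 ceg1-AA/xrn1D libraries, at 376 to 521 TPM. RPL4, RPL35 and RPL7, the 3 lowest by the mean over libraries, share 72.7%, 80.6% and 56.9% of the 50-base stretches between their copies. Other pairs with much sharing were not low. RPL1 and RPL11 share 81.0% and 60.9% and had means of 2614 and 2660 TPM, and RPL42 shares 47.8% and had 7789 TPM. How reads that match both copies were counted is not given in the sources used here, and its part in these sums was not tested. The highest was RPL43, RPL42, RPP2 or RPL28 in the ceg1-AA libraries and RPL10 in each ceg1-AA/xrn1D library, at 6420 to 7382 TPM. The least abundant single gene in every library was RPL15B, at 22.02 to 53.7 TPM.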
